A study of Mus musculus with 18 samples.

Results

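Arp4 was knocked down in mouse marrow-derived mesenchymal stem cells (MSC), and 3 libraries of Arp4-depleted cells (siArp4) were compared with 3 libraries of cells given a control siRNA (siControl) across all genes. These 6 libraries were chosen by their labels from the 18 of the study, and the deposited table held 54347 genes, of which 15415 were tested in the comparison. MSC are adherent marrow progenitors that can become fat or bone cells. They came from male C57BL/6J mice, no age was given, and every culture of this experiment carried an siRNA delivered overnight in serum-free medium with a lipid reagent. The title of the control libraries named a control siRNA, while their treatment label read "siRNA mock". Another transfected group received the Arp4 siRNA together with CK666, an inhibitor of the Arp2/3 complex (siArp4+CK666), and untransfected cells were measured with and without CK666 (CK666 and control) or with cytochalasin D, which is not described here, 3 libraries each. The paper describes 3 distinct preparations per condition and reports that its studies used a primary cell line prepared from male mice. Replicates are therefore cultures of that line, and p-values measure the spread between preparations, not between animals. That spread is estimated per gene and shared by all groups in a fit. It is not specific to siControl, whose replicates lay farther apart than those of siArp4, as given below. No group with the control siRNA and CK666 was analysed here.

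Arp4, the product of Actl6a and also known as BAF53a, is an actin-related protein that stays in the nucleus. It pairs with monomeric actin as a subunit of the BAF (SWI/SNF) remodelling complexes, which slide or evict nucleosomes, and of the INO80, SRCAP and TIP60 complexes, which exchange histone variants or acetylate histones. The closely related Actl6b product takes its place in neurons. Branched actin filaments are started by a different set of actin-related proteins, Arp2 and Arp3 with their ARPC partners.

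Libraries held 19395196 to 24733212 estimated counts, and counts are given below after division by the library's size factor (normalized counts). Replicates of siArp4 lay close together and replicates of siControl did not. Over the 1000 most variable genes, on the variance-stabilized scale, siControl replicates 1 and 2 lay 62.3 apart, farther than the siArp4 libraries lay from the siControl centre (55.9 ± 1.94, SD, n = 3), while pairs of siArp4 libraries lay 16.97 to 19.98 apart. Of 11101 genes with a mean of at least 50, 1910 differed by over 1.5 on the log2 scale between siControl replicates 1 and 2, and siControl replicate 3 lay between them in 97.2% of these, against 49 to 58 genes for pairs of siArp4 libraries. The siControl libraries differed along transcript GC content and length. Deviations of siControl replicate 2 correlated with GC content across 11054 genes at r = 0.34 and with length at r = -0.36, those of replicate 1 at -0.20 and 0.30, those of replicate 3 at 0.12 and -0.22, and those of the siArp4 libraries at -0.22 to 0.00 and -0.10 to 0.21. Genes are not independent replicates, so these values are descriptions. The part of library preparation in any gene's fold change was not tested, and counts of calls are therefore given also without single siControl libraries and after removal of the GC and length trend.

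**Figure D1:**
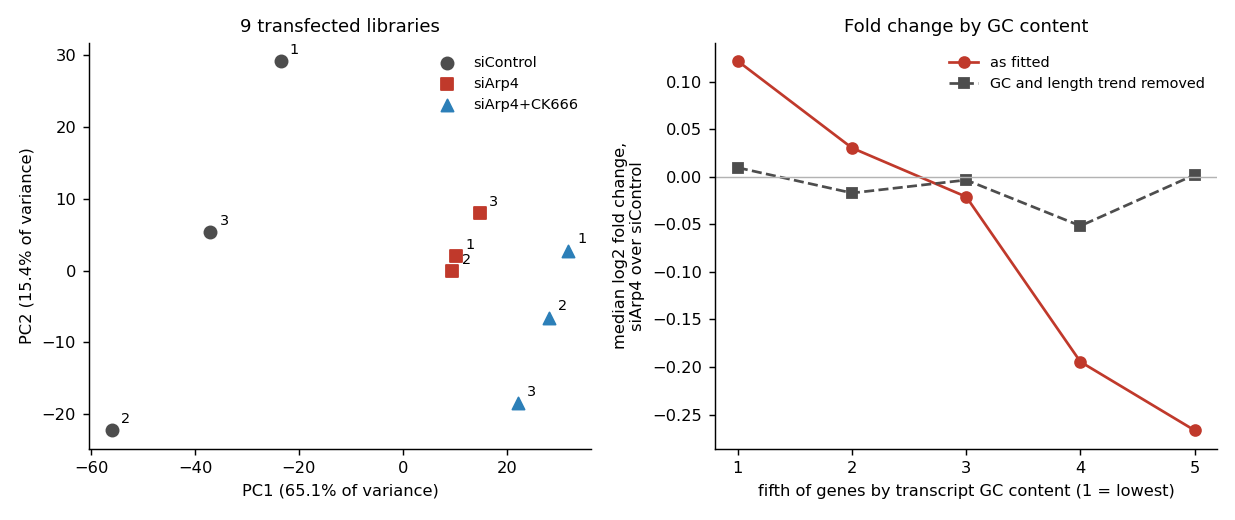
Left, the first 2 principal components of the 9 transfected libraries (1000 most variable genes, variance-stabilized scale), each point a library with its replicate number: the siControl libraries spread over both axes and the siArp4 libraries sit together between 9.55 and 14.8 on the first. Right, the median log2 fold change of siArp4 over siControl in groups of equal size by transcript GC content, which fell from 0.12 to -0.27 as fitted and ran between -0.05 and 0.01 once the GC and length trend was removed.

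The target was reduced in every library. Actl6a (ENSMUSG00000027671.14, chromosome 3 from 32706298 to 32726973, plus strand, GRCm38, GENCODE vM21) stood at 720.1, 1127 and 841 normalized counts in siControl and at 48.8, 57.2 and 19.04 in siArp4, with no overlap (log2 fold change -4.42, SE 0.41, adjusted p 2.59e-25). It kept 4.66% of its siControl level, and its fold change kept its call in all 13 alternatives of the analysis, between -4.71 and -4.07. Actl6b, its neuronal counterpart, was not detectable at this depth, with no count in any of the 6 libraries and hence an upper limit of 3 counts in each. The span of Actl6a overlaps that of Mrpl47 on the other strand, and strand was not recorded.

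Across the genome 2494 genes passed the call (absolute log2 fold change over 1, DESeq2 adjusted p below 0.01), which is 16.2% of those tested: 1031 were higher (6.69%) and 1463 lower (9.49%) in siArp4. Most calls were of moderate size. The median called rise was 1.55 and the median called fall -1.57 on the log2 scale, and 293 genes rose and 429 fell by over 4-fold. Over all genes tested the median log2 fold change was -0.05. Without siControl replicate 1 the count was 3198, without replicate 2 it was 2294, without replicate 3 it was 2149, and with the GC and length trend removed, an alternative added after the data were seen, it was 2587. In all of the 12 alternatives that kept these thresholds 1412 of the calls held in the same direction, 604 higher and 808 lower (56.6%). Groups did not overlap in 2471 of the 2494 called genes and in 43.5% of all genes tested.

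Largest changes were ranked among called genes with a mean of at least 100 normalized counts, a descriptive symbol and no overlap between the groups, so the lack of overlap in them is a matter of their choice. Low-count genes with larger estimates are left out by this rule. The 12 largest rises included genes of secreted and cell surface proteins. Sema3c, a secreted semaphorin that guides migrating cells, was at 67.9, 47.8 and 83.1 normalized counts in siControl and at 1631, 1678 and 2073 in siArp4 (log2 fold change 4.75, SE 0.27, adjusted p 9.88e-65). Timp3, a matrix-bound inhibitor of metalloproteinases, was at 79.6, 45.3 and 53.2 normalized counts in siControl and at 1202, 1162 and 1411 in siArp4 (log2 fold change 4.39, SE 0.24, adjusted p 2.26e-69). Dcn, the small proteoglycan decorin, which binds collagen fibrils, was at 25.1, 22.6 and 26.2 normalized counts in siControl and at 371, 431 and 443 in siArp4 (log2 fold change 4.06, SE 0.27, adjusted p 2.43e-50). In all 3 genes the siArp4 libraries stood far above the siControl libraries. Has2, a hyaluronan synthase, was at 51.97, 13.8 and 32.7 normalized counts in siControl and at 382, 359 and 438 in siArp4 (log2 fold change 3.55, SE 0.37, adjusted p 7.33e-20). Col5a3, a chain of fibrillar collagen V, was at 433, 357 and 385 normalized counts in siControl and at 3423, 3725 and 4034 in siArp4 (log2 fold change 3.25, SE 0.16, adjusted p 8.70e-86). Il1rl1, the receptor of interleukin 33, was at 277, 148 and 139 normalized counts in siControl and at 1763, 1699.7 and 2294 in siArp4 (log2 fold change 3.35, SE 0.35, adjusted p 2.53e-19). For Has2 the siControl values were spread, with replicate 2 the lowest, while those of Col5a3 lay close together. P-selectin (Selp) was at 57, 18.9 and 66.3 normalized counts in siControl and at 675, 483 and 504 in siArp4 (log2 fold change 3.53, SE 0.37, adjusted p 2.95e-19). The leukocyte integrin chain Itgb2 was at 90.5, 65.4 and 104 normalized counts in siControl and at 984, 825 and 892 in siArp4 (log2 fold change 3.37, SE 0.21, adjusted p 1.27e-55). For Selp siControl replicate 2 was the lowest library. The cell polarity gene Prickle1 (3.27), the small GTPase gene Arl4c (3.24), the sodium pump partner gene Nkain1 (4.03) and Ppme1 (3.77), which removes methyl groups from protein phosphatase 2A, made up the 12. Arl4c varied little, with 723, 705 and 717 in siControl and 6778, 6348 and 7116 in siArp4. The span of Ppme1 overlaps that of C2cd3 on the opposite strand.

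The largest falls included enzymes, signalling genes and genes of cell division. C1qtnf12, which encodes the secreted hormone adipolin, was at 506, 1699 and 832 normalized counts in siControl and at 50.5, 29.2 and 46.1 in siArp4 (log2 fold change -4.59, SE 0.46, adjusted p 2.91e-21). Khk, the fructose-phosphorylating ketohexokinase, was at 127, 375 and 240.0 normalized counts in siControl and at 6.74, 17.3 and 12.02 in siArp4 (log2 fold change -4.38, SE 0.57, adjusted p 5.27e-13). Pde2a, a phosphodiesterase that breaks down cyclic nucleotides, was at 3965, 5060.3 and 3404 normalized counts in siControl and at 295, 236 and 241 in siArp4 (log2 fold change -4.01, SE 0.22, adjusted p 4.25e-72). Pde2a differed less among the siControl libraries, whereas C1qtnf12 and Khk were highest in siControl replicate 2 and lowest in replicate 1. Des, the muscle intermediate filament desmin, was at 460.2, 848 and 705 normalized counts in siControl and at 79.2, 42.1 and 33.1 in siArp4 (log2 fold change -3.70, SE 0.39, adjusted p 2.11e-19). Arhgap19, a GTPase-activating protein, was at 682, 484 and 535 normalized counts in siControl and at 26.9, 41.03 and 47.1 in siArp4 (log2 fold change -3.90, SE 0.32, adjusted p 4.61e-32). Peg10, a retrotransposon-derived gene expressed from the paternal allele, was at 1022, 373 and 691 normalized counts in siControl and at 58.1, 44.3 and 67.1 in siArp4 (log2 fold change -3.62, SE 0.40, adjusted p 1.04e-17). Peg10 ran the other way among controls, with its highest value in replicate 1. Ccdc28b (-3.80), Nradd (-3.76) and Sapcd2 (-3.65) fell to a similar degree, and Ccdc28b overlaps the more abundant Tmem234 on the other strand. The remaining members of the 12 largest falls, Actl6a itself, Psmb8 and Cit, are described with their groups. All 24 genes kept their call and direction in the 13 alternatives of the analysis, which their choice by size made likely.

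**Figure D2:**
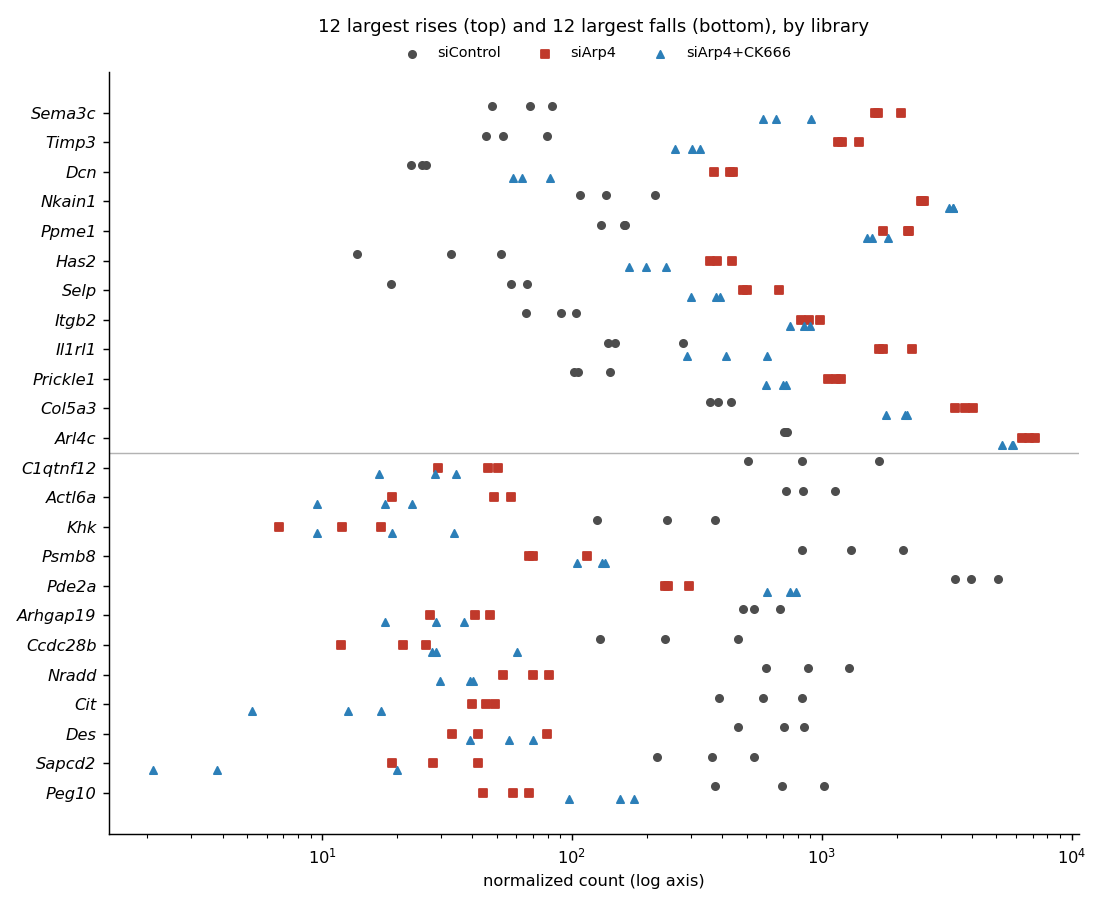
Normalized counts (log axis) of the 12 largest rises and the 12 largest falls in each of the 9 transfected libraries, with circles for siControl, squares for siArp4 and triangles for siArp4+CK666. Genes were chosen with groups that do not overlap, so squares and circles stand apart, and the triangles of Dcn (57.96 to 81.4) and Timp3 (259 to 327) return part of the way towards siControl.

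Among the partners of Arp4 calls were no more frequent than over all genes (16.2%), and 1 of the calls below was Actl6a, the siRNA target itself. Of 25 BAF genes tested, 2 were called lower, Actl6a and Ss18 (8.0% against 9.49% of all genes), and 1 higher, Smarcd1 (4.0% against 6.69%), or 2 higher without siControl replicate 1. Ss18, a subunit of the canonical BAF complex, was at 1509, 1191 and 1380.4 normalized counts in siControl and at 398, 388 and 334 in siArp4 (log2 fold change -1.87, SE 0.19, adjusted p 2.11e-21). Smarcd1, the BAF60a subunit that links the complex to transcription factors, was at 256, 363 and 295 normalized counts in siControl and at 1133, 1128 and 1035 in siArp4 (log2 fold change 1.86, SE 0.17, adjusted p 2.98e-25). Both genes were even within each group and far apart between groups. The ATPase gene Smarca4 did not pass, at 3141, 2259.8 and 2298 normalized counts in siControl and at 3188, 3114 and 3425 in siArp4 (log2 fold change 0.34, SE 0.21, adjusted p 0.216). Of 32 further genes of the INO80, TIP60 and SRCAP complexes only Mcrs1 was called lower (-1.27, 3.12% of the list), with the GC and length trend removed none was, and without siControl replicate 1 the list had 2. Among 26 genes of heterochromatin and Polycomb complexes, which include the readers and writers of methylated histone H3, none was called by DESeq2 or by edgeR and 10 had an unadjusted p below 0.05, with a median of -0.20. Without single libraries up to 1 was higher and up to 2 lower, the latter without siControl replicate 2. Of 16 genes of lamins and the nuclear envelope, Emd (emerin, -1.92) and Sun2 (-1.70), which ties the nucleus to the cytoskeleton, were lower, a share near the 9.49% of all genes.

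Genes of the cytoplasmic actin machinery changed too. Actr2, which encodes Arp2, was at 6332, 3766 and 4789 normalized counts in siControl and at 989, 1167 and 1363 in siArp4 (log2 fold change -2.08, SE 0.25, adjusted p 2.79e-15). Arpc1b, a further subunit of that complex, was at 10045, 10080.3 and 12400.0 normalized counts in siControl and at 5068, 4737 and 4331 in siArp4 (log2 fold change -1.20, SE 0.15, adjusted p 8.42e-14). These groups did not overlap in either gene. Arpc1a (-1.20) and the cytoplasmic actin gene Actg1 (-1.02) were also called lower, and the 4 were all of the calls among 14 genes of this list (28.6% against 9.49% of all genes). Without siControl replicate 2 the list had 2 genes lower, and with the GC and length trend removed 2 lower and 2 higher. Actb was at 48294, 129919 and 73382 in siControl and at 49318, 51739 and 45203 in siArp4, a difference that did not pass (adjusted p 0.056) with siControl replicate 1 inside the range of siArp4 and replicate 2 far above it.

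Genes of cell division fell together. Of 42 genes of mitosis and cytokinesis, 38 were called lower and none higher (90.5% against 9.49% of all genes tested), and the median log2 fold change was -1.72 against -0.05 over all genes. The 4 that did not pass, Ndc80, Incenp, Kif4 and Prc1, were below 0 as well. The number called lower ran from 32 to 38 over the alternatives with the same thresholds, and 38 were lower with the GC and length trend removed, with a median of -1.77. Cit, the citron kinase that completes cytokinesis, had the largest fall and was at 389, 834 and 583 normalized counts in siControl and at 45.5, 39.95 and 49.1 in siArp4 (log2 fold change -3.74, SE 0.37, adjusted p 1.16e-21). Cdc25b, a phosphatase that starts mitotic entry by activating Cdk1, was at 657, 704 and 657 normalized counts in siControl and at 111, 140.4 and 93.2 in siArp4 (log2 fold change -2.55, SE 0.22, adjusted p 2.35e-28). Cenpa, the histone variant that marks centromeres, was at 993, 2408 and 1429 normalized counts in siControl and at 343, 307 and 262 in siArp4 (log2 fold change -2.40, SE 0.35, adjusted p 2.50e-10). For Cit and Cenpa siControl replicate 2 was well above replicate 1, for Cdc25b the controls were even, and in all 3 genes the siArp4 libraries lay well below. Hmmr, a spindle and hyaluronan-binding protein, was at 1059.6, 328 and 615 normalized counts in siControl and at 135, 144 and 138 in siArp4 (log2 fold change -2.27, SE 0.46, adjusted p 1.04e-05). Here siControl replicate 1 was the highest, the reverse of Cit and Cenpa. Cyclin and kinase genes fell by similar amounts. Cyclin B2 (Ccnb2) was at 1138, 1372 and 1322 normalized counts in siControl and at 296, 282 and 264 in siArp4 (log2 fold change -2.19, SE 0.17, adjusted p 8.62e-36). Polo-like kinase (Plk1) was at 1289, 2037 and 1406 normalized counts in siControl and at 379, 314 and 321 in siArp4 (log2 fold change -2.22, SE 0.24, adjusted p 1.82e-18). The proliferation marker Mki67 was at 2537, 1324 and 1453 normalized counts in siControl and at 448, 438 and 494 in siArp4 (log2 fold change -1.95, SE 0.30, adjusted p 1.04e-09). In each of them no siArp4 library reached the lowest siControl library, and Ccnb2 had the most even controls. By DESeq2 no gene of the mitosis, DNA replication, sterol or antigen presentation lists was higher even at an unadjusted p below 0.05, and edgeR called none higher in them. In bulk samples a smaller share of dividing cells and less of these RNAs per cell cannot be told apart.

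The promoters of these genes are known for a pair of motifs, the CCAAT box, bound by the factor NF-Y, and the CHR element (cell cycle genes homology region) near the transcription start, through which the MuvB complexes repress or activate them during the cycle. RefSeq promoters (GRCm38.p6, 250 bases before to 50 after the start) matched 10798 of the genes tested by symbol and 34 of the mitosis list. On either strand CCAAT was found in 73.5% of the mitosis promoters and in 39.1% of all, and the CHR core TTTGAA in 70.6% and 12.2%. Both stood together in 21 of the 34 (61.8%), against 5.21% of all promoters of that length. The 21 members with both had a median log2 fold change of -1.71 and the other 13 of -1.74. Outside the list 542 tested genes held both motifs, and 64 of them were called lower (11.8%, near the 9.49% of all genes tested). The following stretches show the 100 bases before the start of the 4 called members with both motifs and the largest falls that hold a CCAAT box there, with CCAAT or its complement ATTGG in capitals, written 5′ to 3′ on the strand of the gene.
Cenpa (chr5:30666786-30666885, plus strand): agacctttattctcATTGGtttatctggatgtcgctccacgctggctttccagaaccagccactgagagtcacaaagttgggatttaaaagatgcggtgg
Hmmr (chr11:40733438-40733537, minus strand): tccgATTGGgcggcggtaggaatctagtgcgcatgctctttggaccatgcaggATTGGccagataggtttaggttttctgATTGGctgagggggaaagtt
Plk1 (chr7:122159335-122159434, plus strand): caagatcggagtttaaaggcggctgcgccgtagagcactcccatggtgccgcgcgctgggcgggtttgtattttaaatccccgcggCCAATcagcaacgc
Ccnb2 (chr9:70421555-70421654, minus strand): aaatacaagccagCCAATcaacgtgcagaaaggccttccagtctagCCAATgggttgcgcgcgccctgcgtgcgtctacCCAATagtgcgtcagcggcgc

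The CHR core of the same genes lies close to the start. The 30 bases around it, from the same build and strands, carry TTTGAA in capitals.
Cenpa (chr5:30666890-30666919, plus strand): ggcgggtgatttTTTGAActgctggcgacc
Hmmr (chr11:40733412-40733441, minus strand): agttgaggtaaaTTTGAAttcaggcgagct
Plk1 (chr7:122159453-122159482, plus strand): cccagcgccgcgTTTGAAttcggggaggag
Ccnb2 (chr9:70421533-70421562, minus strand): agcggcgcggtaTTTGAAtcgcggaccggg

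**Figure D3:**
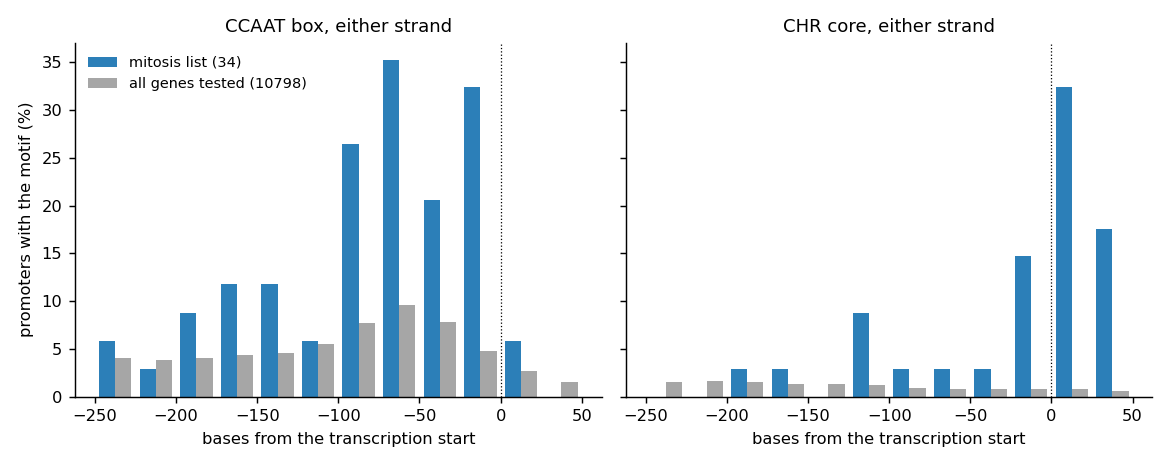
Share of promoters (%) that hold the CCAAT box (left) or the CHR core (right) on either strand, in bins of 25 bases from the transcription start (dotted line), for 34 promoters of the mitosis list and 10798 promoters of all genes tested. In the mitosis list CCAAT peaks at 35.3% between 75 and 50 bases before the start and the CHR core at 32.4% in the 25 bases after it, against 9.61% and 0.852% of all promoters there.

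DNA replication genes moved less. Of 40 tested, 8 were called lower and none higher (20% against 9.49% of all genes lower), with a median of -0.71, and without siControl replicate 1 the number was 15. Chaf1b, a subunit of the chromatin assembly factor that follows the replication fork, was at 622, 1060.1 and 686 normalized counts in siControl and at 196, 169.5 and 145 in siArp4 (log2 fold change -2.21, SE 0.26, adjusted p 5.35e-16). Mcm6, a subunit of the replicative helicase, was at 2057, 2084 and 2220.0 normalized counts in siControl and at 910.4, 903 and 889 in siArp4 (log2 fold change -1.24, SE 0.11, adjusted p 3.40e-27). Both groups were apart, and Mcm6 was even within them. Tk1 (-1.83), Mcm10 (-1.79), Pold1 (-1.65), Uhrf1, Gins2 and Mcm2 were the other calls. A different motif was frequent in these promoters: TTTCGCGC, TTTCCCGC or TTTGGCGC, forms of the E2F site, stood in 38.7% of 31 replication promoters, in 2.94% of the mitosis promoters and in 3.48% of all. Mcm6 is shown as the called member with such a site in the 100 bases before its start, in capitals.
Mcm6 (chr1:128359706-128359805, minus strand): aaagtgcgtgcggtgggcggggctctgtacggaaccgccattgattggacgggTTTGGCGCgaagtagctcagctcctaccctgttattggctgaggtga

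Among 23 genes of cell cycle entry and arrest, E2f7 (-2.48), Cdk6 (-1.33), E2f8 (-1.23) and Cdk2 (-1.03) were called lower. These were 17.4% of the list, against 9.49% of all genes. The list had 1 gene lower by edgeR and 2 without siArp4 replicate 1 or 3. No inhibitor of cyclin-dependent kinases was called in either direction. Cdkn1a, which encodes p21, was at 4793, 6397 and 5801 normalized counts in siControl and at 3458, 3370.2 and 3089.9 in siArp4 (log2 fold change -0.78, SE 0.17, adjusted p 3.68e-05). Cdkn2a varied widely among the controls, at 744, 3291 and 1519 normalized counts in siControl and at 1440.1, 1579 and 1216 in siArp4 (adjusted p 0.557). Of 19 targets of p53, the factor that halts the cycle after DNA damage, 6 were lower and none higher (31.6% against 9.49% of all genes lower), with a median of -0.69. Btg2, an antiproliferative gene, was at 1471, 1646 and 1620.4 normalized counts in siControl and at 307, 322 and 327 in siArp4 (log2 fold change -2.31, SE 0.13, adjusted p 2.31e-65). The death receptor gene Fas was at 339, 436 and 455 normalized counts in siControl and at 80.8, 105 and 97.2 in siArp4 (log2 fold change -2.12, SE 0.23, adjusted p 5.02e-19). Phlda3 (-1.88) and Eda2r (-1.69) fell too.

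Several genes of fat cells fell. Of 21 adipocyte genes of lipid storage, uptake and secreted hormones, 7 were called lower and none higher (33.3% against 9.49% of all genes lower), with a median of -0.75, and 6 to 8 were lower over the alternatives. Adipoq, the fat hormone adiponectin, was at 148, 132 and 231 normalized counts in siControl and at 16, 4.32 and 9.02 in siArp4, and Plin1, which coats lipid droplets, was at 10.9, 3.77 and 41.1 and 4.21, 0 and 1.002. Agpat2, an acyltransferase of triglyceride synthesis, was at 484, 465 and 711 normalized counts in siControl and at 56.4, 69.1 and 56.1 in siArp4 (log2 fold change -3.20, SE 0.26, adjusted p 1.32e-32). Lpl, the lipoprotein lipase that frees fatty acids for uptake, was at 62076, 75281 and 62143 normalized counts in siControl and at 13131, 14367 and 14607 in siArp4 (log2 fold change -2.24, SE 0.13, adjusted p 1.34e-60). The groups were apart in Adipoq, Agpat2 and Lpl, whereas Plin1 rested on low counts, mainly of siControl replicate 3, and its groups overlapped. The fatty acid transporter gene Cd36 was at 45.3, 21.4 and 27.1 normalized counts in siControl and at 2.53, 2.16 and 7.01 in siArp4 (log2 fold change -3.03, SE 0.59, adjusted p 3.56e-06). The fatty acid chaperone gene Fabp5 (-1.68) and the glycerol channel gene Aqp7 (-1.71) completed the calls. The master regulators stayed inside the fold minimum. Pparg, the nuclear receptor that drives adipogenesis, was at 2101, 1562 and 2063 normalized counts in siControl and at 1308, 1144 and 1218 in siArp4 (log2 fold change -0.64, SE 0.16, adjusted p 0.000563). Its partner Cebpa was at 4178, 8069.5 and 6118 normalized counts in siControl and at 3079, 3220.1 and 2946 in siArp4 (log2 fold change -0.99, SE 0.26, adjusted p 0.000954). Values of Pparg in siArp4 were below each control, and those of Cebpa were as well. Among 14 regulators Ebf2 (-1.48) and Zfp423 (-1.03), factors of committed preadipocytes, were lower and Klf4 (1.58) and Nfia (1.06) higher, 14.3% in each direction against 9.49% and 6.69% of all genes. That list had 1 gene higher without siControl replicate 3 and 1 lower without siControl replicate 2 or siArp4 replicate 2. Mature adipocytes themselves are defined by 6 markers, of which Lep was at 0 throughout and 3 had a mean under 10. Their summed level was 2156 to 2930 in siControl and 1162 to 1323 in siArp4, most of it Fabp4, and the part of a few fat cells in these falls was not tested.

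Sterol synthesis genes fell in part, with 9 of 21 called lower (42.9% against 9.49% of all genes), none higher and a median of -0.85. Pmvk, an enzyme of the mevalonate pathway, was at 289, 695 and 490.3 normalized counts in siControl and at 92.6, 97.2 and 88.2 in siArp4 (log2 fold change -2.41, SE 0.33, adjusted p 1.22e-11). Insig1, which holds the sterol sensor in the endoplasmic reticulum, was at 8638, 5018 and 7685 normalized counts in siControl and at 2122, 2037 and 2213 in siArp4 (log2 fold change -1.74, SE 0.23, adjusted p 3.32e-13). Msmo1, which removes methyl groups from lanosterol derivatives, was at 2859, 5710.4 and 4203 normalized counts in siControl and at 1343, 1448 and 1274 in siArp4 (log2 fold change -1.65, SE 0.28, adjusted p 6.77e-08). No group overlapped the other in these genes, and siControl replicate 2 was the highest control for Pmvk and Msmo1 and the lowest for Insig1. Srebf2, the transcription factor of the pathway (-0.58), stayed below the fold minimum. The CCAAT box was present in 13 of 14 sterol promoters (92.9%). Msmo1 and Mvd are shown as the called members with the largest falls that carry it in the 100 bases before the start, in capitals.
Msmo1 (chr8:64733579-64733678, minus strand): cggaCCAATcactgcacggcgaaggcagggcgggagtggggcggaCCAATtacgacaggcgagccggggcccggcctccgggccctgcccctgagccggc
Mvd (chr8:122443423-122443522, minus strand): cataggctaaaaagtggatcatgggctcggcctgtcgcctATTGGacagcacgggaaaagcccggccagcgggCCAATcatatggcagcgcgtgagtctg

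Fatty acid synthesis had calls in both directions. The desaturase gene Fads1 (-2.49) and the elongase gene Elovl5 (-1.41), both of polyunsaturated chains, were called lower, and Scd2, a desaturase of saturated chains (2.24), and Acly, which supplies cytosolic acetyl-CoA (1.83), were higher, among 13 genes tested (15.4% in each direction, against 9.49% and 6.69% of all genes). Fads1 was at 5093, 6100.3 and 5237 normalized counts in siControl and at 928, 1029 and 977 in siArp4 (log2 fold change -2.49, SE 0.13, adjusted p 1.83e-74). Scd2 was at 9120.4, 5832 and 7253 normalized counts in siControl and at 32072, 34038 and 38555 in siArp4 (log2 fold change 2.24, SE 0.21, adjusted p 6.06e-25). Within each group the 3 libraries of Fads1 were close, and those of Scd2 spread by less than the gap between groups.

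Antigen presentation on class I molecules needs the immunoproteasome, the peptide transporter and the transactivator Nlrc5, and 5 of 11 such genes were called lower and none higher (45.5% against 9.49% of all genes lower). Psmb8, a catalytic immunoproteasome subunit, was at 836, 2115 and 1309 normalized counts in siControl and at 67.4, 114 and 70.1 in siArp4 (log2 fold change -4.08, SE 0.37, adjusted p 2.61e-26). Tap1, a chain of the peptide transporter, was at 1225, 1859 and 1319 normalized counts in siControl and at 114, 145 and 167 in siArp4 (log2 fold change -3.37, SE 0.30, adjusted p 9.21e-27). Nlrc5 was at 117, 112 and 159.7 normalized counts in siControl and at 21.9, 25.9 and 22.04 in siArp4 (log2 fold change -2.48, SE 0.30, adjusted p 5.80e-15). These 3 held in every alternative, and their groups were far apart. Psmb10 (-2.40) and Psmb9 (-1.41) varied more among the controls, and edgeR called 3 genes of the list lower. B2m, the light chain of class I molecules, was at 14597, 13204 and 16778 normalized counts in siControl and at 14310.0, 13815 and 13290.2 in siArp4 and did not pass (adjusted p 0.618). Of 24 interferon-stimulated genes 3 were lower, Irf7 (-2.10), Ifit2 (-2.03) and Bst2 (-1.49), and Isg15 (1.34) was higher, shares near the 9.49% and 6.69% of all genes. The interferon list had a median of 0.08, and without siControl replicate 1 the number higher was 5. Of 16 stromal chemokine and interleukin genes 4 were higher and 3 lower (25% and 18.8%, against 6.69% and 9.49% of all genes), with 2 higher without siArp4 replicate 1. Cxcl12, the marrow chemokine that holds blood stem cells in their niche, was at 71998, 54587 and 69332 normalized counts in siControl and at 12215, 11916 and 12664 in siArp4 (log2 fold change -2.41, SE 0.15, adjusted p 1.33e-55). The interleukin 1 receptor antagonist gene Il1rn was at 2247, 2021 and 1807 normalized counts in siControl and at 4349, 4728 and 5392 in siArp4 (log2 fold change 1.25, SE 0.16, adjusted p 1.15e-13). Cx3cl1 (-2.05) and Ccl2 (-1.37) followed Cxcl12, while Il1rl1, Cxcl1 (1.07) and Ccl8 (low counts) rose, and without siArp4 replicate 1 the number higher was 2.

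Several extracellular matrix genes rose. Of 23 glycoprotein and crosslinker genes 7 were higher and 1 lower (30.4% higher against 6.69% of all genes), with a median of 0.80. Fbln2, an elastic fibre glycoprotein, was at 20884, 24854 and 25903 normalized counts in siControl and at 89709.8, 89521 and 81743 in siArp4 (log2 fold change 1.87, SE 0.16, adjusted p 4.12e-30). Fibronectin (Fn1), the ligand of integrin alpha 5, was at 60242, 37801 and 49371 normalized counts in siControl and at 108174, 108469 and 123807 in siArp4 (log2 fold change 1.21, SE 0.20, adjusted p 3.23e-08). Nid2 (1.49) and Hspg2 (1.21) of basement membranes rose as well, and Ogn (osteoglycin, -1.95) fell. Of 22 collagen genes 6 were higher and 4 lower (27.3% and 18.2%, against 6.69% and 9.49% of all genes). Fibrillar Col3a1 was at 12595, 3190.3 and 10326 normalized counts in siControl and at 60728, 62058 and 65584 in siArp4 (log2 fold change 2.85, SE 0.41, adjusted p 6.76e-11). Fibrillar Col1a1 was at 32801, 17579 and 27614 normalized counts in siControl and at 82588, 81997 and 89298 in siArp4 (log2 fold change 1.70, SE 0.24, adjusted p 1.56e-11). In both, siControl replicate 2 was the lowest of all libraries and the siArp4 libraries lay close together. Col5a3 and the low-count Col14a1 (3.43) were the other large rises. The lower ones were Col18a1 (-2.08), Col15a1 (-1.43), Col4a5 (-1.22) and Col12a1 (-1.55). Among 21 proteases and inhibitors 19% were higher and 23.8% lower, against 6.69% and 9.49% of all genes. Timp3, Mmp15 (2.69), Mmp13 (1.64) and Timp2 (1.26) were higher, and 5 were lower, with Adamts9 at low counts (-3.18), Adamts12 (-1.61), Adamts7 (-1.44) and Mmp23 (-1.30) at the head. The list had 2 genes lower by edgeR and without siControl replicate 1 or siArp4 replicate 1, and 3 without siArp4 replicate 2. Mmp15, a membrane-type metalloproteinase, was at 342, 319 and 325 normalized counts in siControl and at 2029, 2162 and 2181 in siArp4 (log2 fold change 2.69, SE 0.13, adjusted p 4.86e-89).

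Of 24 integrin and focal adhesion genes 5 were higher and 2 lower (20.8% and 8.33%, against 6.69% and 9.49% of all genes), with a median of 0.06, and 1 was lower without any single siArp4 library. Itga5, the fibronectin receptor chain, was at 2436, 2059.8 and 1883 normalized counts in siControl and at 9224, 8954 and 9838 in siArp4 (log2 fold change 2.13, SE 0.16, adjusted p 1.47e-39). Itga9 (3.71, low counts), Tln2 (1.65), Lims1 (1.43) and Itgb5 rose, and Itga3 (-2.10) and Itga11 (-1.22) fell. SRF with its coactivator MRTF, which monomeric actin holds out of the nucleus, drives contractile genes. Of 23 of its targets 5 were higher and 1 lower (21.7% and 4.35%, against 6.69% and 9.49% of all genes). Without siControl replicate 2 there were 3 higher and 2 lower, and without replicate 3 none was lower. Filip1l was at 424, 159.7 and 255 normalized counts in siControl and at 1076, 972 and 1089 in siArp4 (log2 fold change 1.90, SE 0.34, adjusted p 3.58e-07). The myosin light chain gene Myl9 was at 389, 850.1 and 656 normalized counts in siControl and at 2350.5, 1999 and 1673 in siArp4 (log2 fold change 1.67, SE 0.32, adjusted p 1.66e-06). Both groups were apart in these genes. Acta2, smooth muscle actin, was at 14384, 22760.0 and 19561 normalized counts in siControl and at 24119, 22670.1 and 20978 in siArp4 and did not pass (adjusted p 0.355). YAP and TEAD respond to cell spreading. Of 19 of their targets 4 were higher (21.1% against 6.69% of all genes) and 2 lower (10.5%, near the 9.49% of all genes). The number lower was 1 without siControl replicate 3 or any single siArp4 library. Ccn2, the connective tissue growth factor, was at 6322, 7172 and 7535 normalized counts in siControl and at 16987, 16847 and 17091 in siArp4 (log2 fold change 1.28, SE 0.12, adjusted p 8.89e-23). F3, tissue factor, went the other way and was at 1956, 2360.4 and 2472 normalized counts in siControl and at 419, 492 and 429.8 in siArp4 (log2 fold change -2.34, SE 0.17, adjusted p 4.48e-41). Ccn1, the closest relative of Ccn2, was at 2957, 3849 and 3328 normalized counts in siControl and at 2959, 2871 and 2693 in siArp4 and did not pass (adjusted p 0.195).

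Of 28 TGF-beta and BMP pathway genes 7 were higher and 4 lower (25% and 14.3%, against 6.69% and 9.49% of all genes), with a median of 0.08. Inhba, the activin A chain, was at 615, 262 and 334 normalized counts in siControl and at 2117, 2302 and 3240.2 in siArp4 (log2 fold change 2.66, SE 0.35, adjusted p 6.95e-13). Bmp1, the proteinase that trims procollagen, was at 12136, 12724 and 11556 normalized counts in siControl and at 38902, 37882 and 39061 in siArp4 (log2 fold change 1.67, SE 0.10, adjusted p 2.16e-65). Smad7, the feedback inhibitor of the pathway, was at 606, 638 and 626 normalized counts in siControl and at 1678, 1637 and 1587 in siArp4 (log2 fold change 1.39, SE 0.11, adjusted p 3.66e-36). Bmp1 and Smad7 varied little in both groups. The BMP antagonist gene Grem1 had the largest estimate (5.302) at 0 to 0.934 normalized counts in siControl and 8.02 to 21.1 in siArp4. Tgfb1 (-1.30), Id2 (-1.20), Chrd (-1.16) and Tgfbr3 (-1.07) were lower. Of 20 semaphorins and plexin or neuropilin receptors 5 were higher and none lower (25% higher against 6.69% of all genes), with 1 lower without siControl replicate 1. Besides Sema3c these were Sema7a, Sema3e (2.20), Sema6d (1.74) and the receptor Plxna2. Sema7a, a membrane-anchored ligand of integrin beta 1, was at 1813, 1675 and 1857 normalized counts in siControl and at 8633, 8552 and 8839.8 in siArp4 (log2 fold change 2.28, SE 0.11, adjusted p 3.08e-85). Among 28 Wnt pathway genes 5 were higher and 2 lower (17.9% and 7.14%, against 6.69% and 9.49% of all genes). There were 2 higher without siControl replicate 3 and 3 without siArp4 replicate 1 or 3, and 1 lower without siControl replicate 2 or 3 or siArp4 replicate 1 or 2. The antagonist gene Sfrp2 (1.54) and the receptor gene Lgr6 (1.27) rose, and the inhibitor gene Nkd1 fell on low counts (-3.48). Of 20 immediate early genes 4 were higher and 4 lower (20% each, against 6.69% and 9.49% of all genes), with 2 higher by edgeR. Myc, a driver of growth, was at 339, 445 and 420.3 normalized counts in siControl and at 1702, 1746 and 1605 in siArp4 (log2 fold change 2.07, SE 0.18, adjusted p 4.61e-27). The AP-1 gene Jun was at 822, 594 and 845 normalized counts in siControl and at 2986, 2905 and 2817 in siArp4 (log2 fold change 1.94, SE 0.17, adjusted p 5.63e-27). Egr1, a zinc finger factor induced by serum, was at 2619.6, 3227 and 2628 normalized counts in siControl and at 509.5, 504 and 496 in siArp4 (log2 fold change -2.49, SE 0.16, adjusted p 1.40e-49). In each of the 3 the siArp4 libraries lay close to each other and clear of the controls. Egr2 (-2.14), Egr3 (-1.11) and Ier2 (-2.21) fell with Egr1, and Ier3 and Fosl1 rose with Jun. Fos, at 16.03 to 55.3 in all 6 libraries, did not pass (adjusted p 0.243).

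Metabolic and stress genes gave smaller groups of calls. Of 24 glycolysis and hypoxia genes 6 were higher and 1 lower (25% and 4.17%, against 6.69% and 9.49% of all genes). Adm, the vasodilator peptide adrenomedullin, was at 85.5, 123.2 and 86.9 normalized counts in siControl and at 979, 856 and 807 in siArp4 (log2 fold change 3.17, SE 0.21, adjusted p 2.69e-50). Egln3, an oxygen-sensing prolyl hydroxylase, was at 102, 77.97 and 114 normalized counts in siControl and at 506, 563 and 502 in siArp4 (log2 fold change 2.41, SE 0.19, adjusted p 1.17e-33). Ndrg1, itself a gene induced by low oxygen, was the lower one and was at 219, 311 and 296 normalized counts in siControl and at 34.5, 38.9 and 24.05 in siArp4 (log2 fold change -3.08, SE 0.33, adjusted p 4.52e-19). Ankrd37 (1.86) and Pfkl (1.63), which commits sugar to glycolysis, rose. NRF2 guards against oxidants. Of 17 of its targets and metallothioneins 3 were higher and 1 lower (17.6% and 5.88%, against 6.69% and 9.49% of all genes). Without siControl replicate 1, 3 were lower. Nqo1, a quinone reductase, was at 442, 410.0 and 489 normalized counts in siControl and at 3631, 3529 and 3661 in siArp4 (log2 fold change 3.01, SE 0.12, adjusted p 1.57e-134). Gstm1, a glutathione transferase, was at 1193, 4805 and 2128 normalized counts in siControl and at 508, 539.9 and 369 in siArp4 (log2 fold change -2.52, SE 0.46, adjusted p 4.79e-07). Nqo1 differed little within a group, whereas Gstm1 ran over a wide range in siControl. Of 22 genes of the integrated stress response Nupr1 (1.499), Atf3 (1.37) and Trib3 (1.15) were higher (13.6% against 6.69% of all genes) and none lower. Atf4 (-0.41, adjusted p 0.179) and Ddit3 (-1.04, adjusted p 0.0201) did not pass. Without siControl replicate 1, 3 of this list were lower, and with the GC and length trend removed 5 were higher. Of 22 chaperone and unfolded protein response genes Sdf2l1 (-1.59) and Canx (-1.24) were lower (9.09%, near the 9.49% of all genes), with 4 lower without siControl replicate 1. Of 14 heat shock genes Cryab (1.41) and Hspa1b (1.36) were higher (14.3% against 6.69%), with 4 higher and 1 lower without siControl replicate 1 and 1 higher without any single siArp4 library. Ribosomal protein genes had a median of -0.75 with 2 of 25 called lower (8.0% against 9.49% of all genes), and this count moved with single libraries: without siControl replicate 1, 16 were lower, without replicate 2 or any single siArp4 library 1 was, and with the GC and length trend removed the median was -0.46. Oxidative phosphorylation behaved alike, with a median of -0.51 and 1 of 25 lower (4.0% against 9.49% of all genes), Atp5c1 of the ATP synthase (-1.96). Without siControl replicate 1, 6 were lower, and without replicate 3, 2 were.

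**Figure D4:**
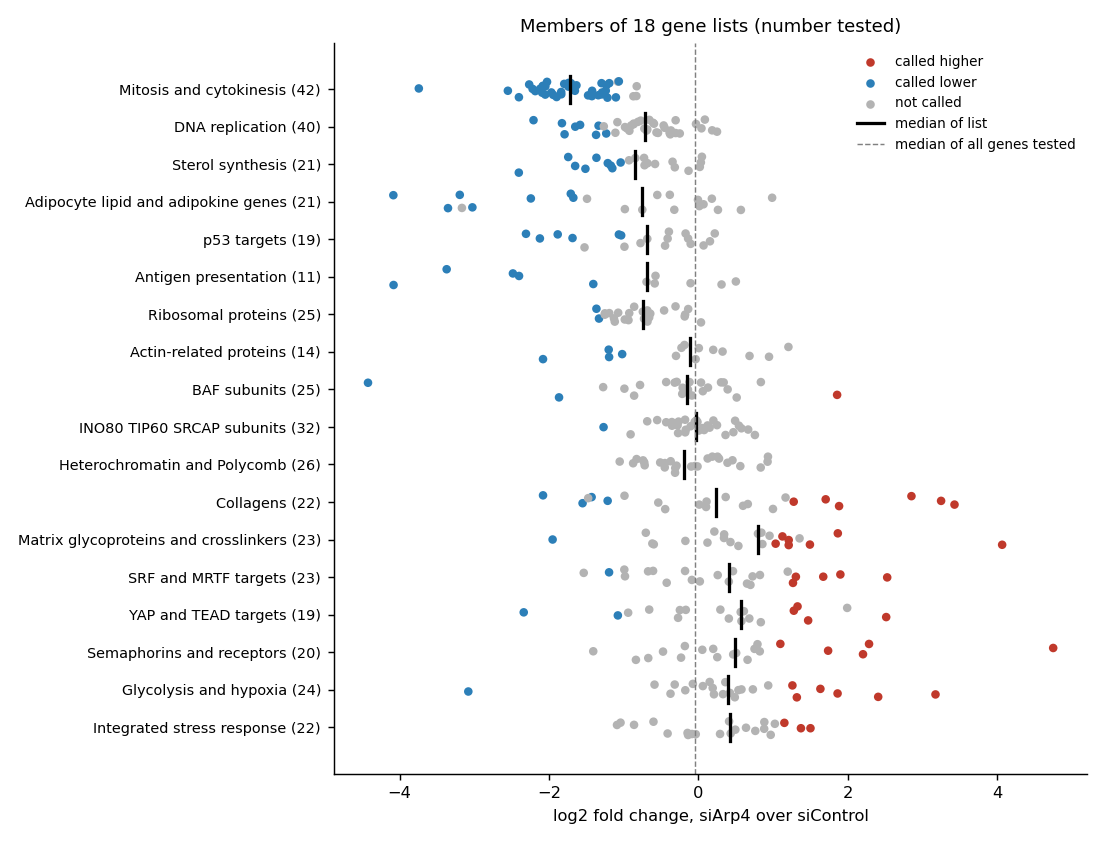
Log2 fold change of siArp4 over siControl for the tested members of 18 gene lists (number tested in brackets), each point a gene, red where called higher, blue where called lower and grey where not called. The black bar is the median of the list and the dashed line the median of all genes tested (-0.05). The mitosis list sits wholly below 0 with a median of -1.72, and the matrix glycoprotein list has the highest median, 0.80.

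Lineage and cell type markers were read next. The MSC label was borne out in part: Pdgfra, Pdgfrb, Itgb1, Cd81 and Vcam1 were abundant in all 6 libraries, Ly6a (1.42) and the low-count Alcam (3.49) were called higher in siArp4 (18.2% of 11 against 6.69% of all genes, with 1 lower without siControl replicate 1), and Thy1 was at 0 and Nt5e at most at 5.40. Of 16 osteoblast genes 4 were higher, Phex (1.88), Col1a1, Msx2 (1.51) and Spp1, and Bglap2 fell on low counts (-2.87), which is 25% and 6.25% of the list against 6.69% and 9.49% of all genes. Without siArp4 replicate 1 or 3 none was lower. Spp1, the bone matrix protein osteopontin, was at 87155, 85946 and 97618 normalized counts in siControl and at 237262, 238042 and 236586 in siArp4 (log2 fold change 1.39, SE 0.11, adjusted p 9.94e-36). The osteoblast regulator Runx2 did not pass, at 1183, 528 and 626 normalized counts in siControl and at 894, 974 and 1078 in siArp4 (adjusted p 0.504). Markers of other cells were few. Of 12 blood cell markers 7 were at 0 in all 6 libraries, including Ptprc, Itgam and Adgre1, and the summed level was 149 to 382 in siControl and 174 to 185 in siArp4. Of 8 endothelial markers 4 were at 0, including Cdh5, with sums of 15.1 to 30.2 and 14.3 to 120.9. Of 8 epithelial markers 4 were at 0, including Cdh1, and the sum, 671 to 2324 in siControl and 210.4 to 299 in siArp4, was almost wholly Krt19 (-2.44). Pericyte and smooth muscle markers summed to 15557 to 23834 and 21490 to 24481, mostly Acta2. Chondrocyte markers (536 to 771 and 1062 to 1162, mostly Sox9, with Acan at 0), bone cell markers (26.4 to 56.0 and 83.1 to 99.2, with Ibsp at 0) and neural markers (104.6 to 123.2 and 57.2 to 71.6, with Sox10 at 0) were low or carried by 1 gene. Within the neural list Mbp (-2.18) and Gfap, at 23.5, 21.4 and 1.87 in siControl and 0 in siArp4, were called lower. That number was 1 by edgeR, with a filter on low counts, with the replicate number as a block and without any single library. The part of such cells in the results was not tested.

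How the knockdown compared with Arp2/3 inhibition was tested gene by gene, as the knockdown effect within transfected cells minus the CK666 effect within untransfected cells, each against its own controls. A difference between the treatments therefore cannot be told apart from one due to transfection or to the experiment. The effects differed at the same thresholds for 3171 genes, 19.9% of 15959 tested, 1454 with the higher value in the knockdown (9.11%) and 1717 with the lower (10.8%). CK666 alone called 4.89% of 14597 genes higher and 6.06% lower. Of the 2494 genes called in the knockdown, 1607 differed (64.4%). Cell division and sterol genes went down under both treatments. In the mitosis list 38 genes were lower in the knockdown and 26 with CK666, with medians of -1.72 and -1.11, and 10 of 42 differed between the effects, all lower in the knockdown. DNA replication had the opposite balance, with 8 and 27 lower, medians of -0.71 and -1.11 and 6 genes less reduced by the knockdown. In the sterol list 9 and 15 were lower, with 8 of 22 less reduced by the knockdown.

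In the adipocyte list 7 genes were lower and none higher in the knockdown, while 9 were higher and none lower with CK666, and 12 of 21 had the lower and 1 the higher value in the knockdown. Adipoq changed by -4.09 with the knockdown and by 1.91 with CK666, a difference of -5.95 (adjusted p 1.97e-25), and Lpl by -2.24 and 0.85, a difference of -3.06 (adjusted p 2.07e-126). In the integrated stress response list 3 were higher in the knockdown and 17 with CK666, and 15 of 24 differed, with the lower value in the knockdown. Trib3, a pseudokinase induced by ATF4, changed by 1.15 and 4.66, a difference of -3.47 (adjusted p 2.56e-18). The knockdown effect was higher than the CK666 effect for 12 of 23 matrix glycoprotein genes and 12 of 24 SRF and MRTF targets and lower for none. Col3a1 changed by 2.85 and -2.08, a difference of 4.98 (adjusted p 1.39e-26) and Filip1l by 1.90 and -2.13, a difference of 4.07 (adjusted p 6.91e-17). Antigen presentation genes, 5 lower in the knockdown, had 2 higher and none lower with CK666, and 6 of 11 differed.

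**Figure D5:**
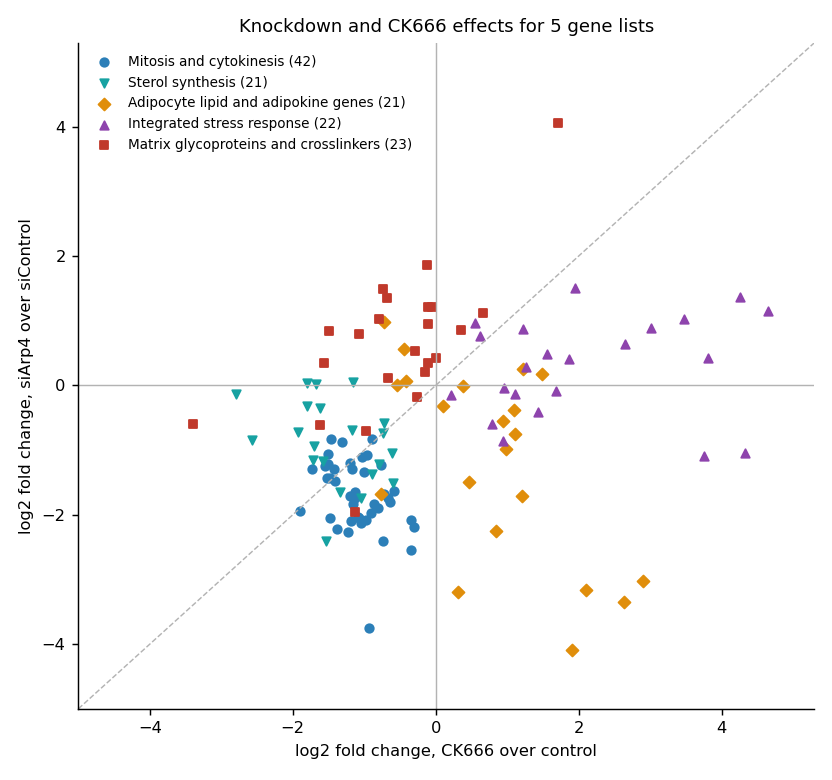
Log2 fold change of siArp4 over siControl (vertical) against that of CK666 over control (horizontal) for members of 5 gene lists, each point a gene, with the dashed line where both effects are equal. Mitosis and sterol genes lie in the lower left, adipocyte genes reach the lower right (Adipoq at -4.09 and 1.91), stress response genes lie to the right with knockdown values between -1.09 and 1.499, and matrix glycoprotein genes lie mostly above the line.

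CK666 was also given to knockdown cells, and siArp4+CK666 against siArp4 called 811 genes, 5.75% of 14098 tested, 230 higher (1.63%) and 581 lower (4.12%). This contrast shares the siArp4 libraries with the knockdown contrast, so the values are set side by side only. Several of the largest rises were lower again with CK666: Dcn stood at 81.4, 62.95 and 57.96 normalized counts with CK666, a change of -2.62 (adjusted p 1.40e-27), Timp3 changed by -2.09 (adjusted p 2.14e-18), Il1rl1 by -2.14 (adjusted p 5.00e-08) and Sema3c by -1.33 (adjusted p 5.11e-06). Col3a1 stood at 11551, 12976 and 10569.9, near the higher siControl values, a change of -2.42 (adjusted p 1.16e-07). Others did not pass: Arl4c differed by -0.27 (adjusted p 0.097), Itgb2 by -0.12 (adjusted p 0.801) and Nkain1 by 0.39 (adjusted p 0.322). Among the falls Pde2a regained part of its level, a change of 1.47 (adjusted p 1.45e-09). Lpl was at 56309.8, 58925 and 56406, just below siControl, a change of 2.03 (adjusted p 4.23e-49), and Adipoq at 165, 109 and 135, a change of 3.76 (adjusted p 4.06e-15). In the mitosis list 35 of 42 genes fell further, and in the adipocyte list 7 of 20 rose and none fell. Mki67, the proliferation marker, was at 121, 76.3 and 84.3, a change of -2.30 (adjusted p 7.13e-12).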

How the data were processed

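Gene expression was measured by paired-end RNA sequencing without strand information. Reads were quantified with Salmon 1.2.1 on mm10 (GRCm38) transcripts by the authors. The values they deposited are estimated counts per gene, not normalized, and how transcripts were summed to genes is not given in the sources used here. Counts were rounded to whole numbers, which moved no library of the transfected experiment by over 277 counts. siArp4 and siControl libraries were compared with DESeq2 1.42.0 (R 4.3.3, Wald test, Benjamini-Hochberg adjustment, group as the only term) fitted on the 9 transfected libraries, and genes with an adjusted p below 0.01 and an absolute log2 fold change over 1 were called. The difference between knockdown and CK666 effects was fitted on 18 libraries. Normalized counts are counts divided by DESeq2 size factors within an experiment. Alternatives were edgeR 4.0.16 (quasi-likelihood), TMM, a filter on low counts, fewer libraries, other fold rules, a replicate block, each library left out, and removal of a GC and length trend (loess), the last chosen after the data were seen. Methods were tested on simulated data. Named genes were the 12 called genes with the largest rise and the 12 with the largest fall at a mean of at least 100 that did not overlap between groups, passing over genes without a descriptive symbol, and up to 4 called members of a list in each direction with its defining members. Further called members, such as Mki67, Plk1 and Mcm6, were named after their values were seen. The members and gene lists were chosen with earlier results of these data known. Totals were 18848954 to 24733212 counts in the transfected libraries. Floors cover counting error only. Gene symbols and coordinates came from GENCODE vM21 (GRCm38) and promoters from RefSeq (GRCm38.p6).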

Additional observations from a re-analysis of the deposited data

Results flagged for a closer look

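Knockdown and CK666 effects differed, by the test of the difference itself (DESeq2, 18 libraries), for 3171 genes. The knockdown was measured in transfected cells and CK666 in untransfected ones, so treatment cannot be told apart from transfection or experiment here. Among genes called in the knockdown with a mean of at least 100, the 4 with the largest differences in each direction follow, in normalized counts scaled within each experiment. Il1rl1, the interleukin 33 receptor gene, was at 277, 148 and 139 in siControl and 1763, 1699.7 and 2294 in siArp4, and at 730.3, 596 and 704 in control and 32.4, 45.9 and 40.9 with CK666, a difference of 7.48 (SE 0.48, adjusted p 1.31e-52). Mcf2l, a guanine nucleotide exchange factor gene, was at 211, 258 and 257 in siControl and 709.9, 767 and 796 in siArp4, and at 488, 794 and 598 in control and 32.4, 58.1 and 23.2 with CK666, a difference of 5.73 (SE 0.49, adjusted p 1.98e-29). Oacyl, an acyltransferase-like gene, was at 114, 32.7 and 54.2 in siControl and 206, 176 and 278 in siArp4, and at 163, 153 and 149 in control and 11.8, 11.2 and 17.7 with CK666, a difference of 5.25 (SE 0.57, adjusted p 2.32e-18). These genes were higher in every knockdown library than in its controls and lower in every CK666 library. Has2, the hyaluronan synthase gene, was at 51.97, 13.8 and 32.7 in siControl and 382, 359 and 438 in siArp4, and at 97.7, 94.5 and 125 in control and 21.6, 44.9 and 33.5 with CK666, a difference of 5.25 (SE 0.45, adjusted p 3.67e-29). Khk, the ketohexokinase gene, was at 127, 375 and 240.0 in siControl and 6.74, 17.3 and 12.02 in siArp4, and at 42.6, 27.3 and 32.1 in control and 91.4, 49.95 and 61.4 with CK666, a difference of -5.34 (SE 0.67, adjusted p 4.20e-14). Macrod1, a hydrolase gene for ADP-ribose, was at 306, 713 and 472 in siControl and 48.8, 57.2 and 35.1 in siArp4, and at 129, 147 and 159 in control and 535, 336 and 409 with CK666, a difference of -4.93 (SE 0.47, adjusted p 1.85e-23). Khk and Macrod1 ran the other way, with each siArp4 library below its controls. Fbxo36, an F-box gene, was at 177, 270.4 and 221 in siControl and 18.5, 30.2 and 19.04 in siArp4, and at 41.6, 58.4 and 56.9 in control and 199, 137 and 112 with CK666, a difference of -4.79 (SE 0.44, adjusted p 1.41e-25). C1qtnf12, the adipolin gene, was at 506, 1699 and 832 in siControl and 50.5, 29.2 and 46.1 in siArp4, and at 556, 503 and 485 in control and 615, 516 and 516 with CK666, a difference of -4.65 (SE 0.50, adjusted p 4.89e-19). C1qtnf12 had overlapping values in control and CK666.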

How the results depend on the processing

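With the same thresholds, the number of genes called in the knockdown was 1752 by edgeR, 2496 with TMM size factors, 2488 with a filter on low counts, 2305 from the 6 libraries alone and 2587 with the GC and length trend removed (added after the data were seen, 2247 calls shared), and 1968 to 3198 with 1 library left out. Without the fold change minimum it was 3867, and tested against a fold change of 2 it was 431. The difference from the CK666 effect gave 2680 to 3266 genes over the other settings and 2802 to 4133 with 1 library left out, the highest without siControl replicate 1. CK666 in knockdown cells gave 466 genes by edgeR, 769 to 944 with other settings and 575 to 735 with 1 library left out. The distance of siArp4 from the siControl centre was 44.96 over 500 genes and 82.4 over 5000. The genes with the largest changes and the largest differences from CK666 kept direction and call in all 443 alternatives run for them. They were chosen for large effects in these same libraries, which made that outcome likely. For the gene lists 967 list counts stayed within 1.5 times of their value and 181 did not. The cause was not tested.

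Replicate numbers did not pair the samples: the deviations of same-numbered siControl and siArp4 libraries correlated at -0.29, 0.33 and -0.07 across genes. With the replicate number as a block, 2390 genes were called in the knockdown (1040 higher and 1350 lower), 3081 in the difference from CK666 and 769 for CK666 in knockdown cells.

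The spread of the siControl libraries limits the comparison, since 1 of them moves many list counts. With 3 libraries a group and a floor of 3 counts, low genes carry wide errors.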

Other observations

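A few genes went from at most 3 counts in every library of one group to at least 20 in every library of the other. There were 10 that appeared in siArp4, 7 of them protein-coding (Vipr2, Hormad2, Nppc, H2-M1, Kcnj2, Il1f10 and H2-M9). H2-M1, a nonclassical class I gene of the histocompatibility region, had 0, 0 and 0 counts in siControl and 116, 77 and 76 in siArp4, and its level was at least 20.2-fold higher in siArp4 against a floor of 3 counts per library. H2-M9, of the same family, had 0, 0 and 2 counts in siControl and 57, 66 and 57 in siArp4, and family members can share reads. Nppc, which encodes the C-type natriuretic peptide of cartilage growth, had 2, 2 and 1 counts in siControl and 27, 23 and 29 in siArp4. There were 4 that disappeared, Mtus2, Renbp, Hvcn1 and Gal3st2b. Mtus2, a microtubule-associated gene, had 112, 73 and 87 counts in siControl and 1, 3 and 1 in siArp4. Hvcn1, a voltage-gated proton channel gene, had 41, 26 and 38 counts in siControl and 1, 1 and 0 in siArp4. These genes were selected for this pattern, so the values are a description.

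Of 23 lysosome and autophagy genes 3 were higher and 3 lower (13.0% each, against 6.69% and 9.49% of all genes), with 5 lower without siControl replicate 1 and 1 lower without siControl replicate 2 or siArp4 replicate 3 or with the GC and length trend removed. They included Ctsb (1.51), Gla (1.12) and the proton pump subunit gene Atp6v0d2 (1.60) higher and Ctsk (-1.20) and Neu1 (-1.05) lower. Ctsb, the protease cathepsin B, was at 32279, 16672 and 27045 normalized counts in siControl and at 70139.6, 70296 and 75562 in siArp4 (log2 fold change 1.51, SE 0.25, adjusted p 2.15e-08). Ctsk, the collagen-degrading cathepsin K, was at 1838, 2160.4 and 2176 normalized counts in siControl and at 888, 939 and 855 in siArp4 (log2 fold change -1.20, SE 0.14, adjusted p 2.26e-15). Of 16 genes of the insulin-like growth factor axis Igfbp4 (1.16) and Igf1r (1.09) were higher, with 4 higher without siControl replicate 1 and 1 without siControl replicate 2 or siArp4 replicate 1. Of 8 complement genes C1s1 (-1.28) and Cd59a (-1.21) were lower (25% against 9.49% of all genes), with 1 lower without siControl replicate 2 or siArp4 replicate 2 and 2 higher without siControl replicate 1. Of 20 ribosome biogenesis genes Mybbp1a (1.51) was higher (5.0% against 6.69% of all genes). None was higher by edgeR, 2 were without siControl replicate 2 and 3 with the GC and length trend removed. Without siControl replicate 1, 2 were lower. Of 11 genes of the imprinted growth network Peg10 and its neighbour Sgce (-1.004) were lower (18.2% against 9.49% of all genes) and Dcn higher (9.09% against 6.69%). There was 1 lower without siControl replicate 3 or siArp4 replicate 2 or 3, and 2 higher without siControl replicate 1.

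Protein-coding genes had 885 higher (6.84%) and 1392 lower (10.8%) calls of 12948 tested, near the 6.69% and 9.49% of all genes. Both the CCAAT box and the CHR core stood in 3.92% of the promoters of genes called higher and in 5.75% of those called lower outside the mitosis list, against 5.21% of all. The AP-1 site TGACTCA stood in 5.87% of the promoters of genes called higher, 2.45% of those called lower and 3.71% of all, and was not tested.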
